A study of Mus musculus with 12 samples.

Results

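The 8 miRNAs described here are known from immune cells and inflammation: mmu-miR-142a-3p, mmu-miR-142a-5p, mmu-miR-146a-5p, mmu-miR-146b-5p, mmu-miR-150-5p, mmu-miR-155-5p, mmu-miR-223-3p and mmu-miR-21a-5p, written below without the species prefix mmu. They were chosen by name from a table of 1908 mature miRNAs, and all 8 had counts in all 12 libraries. The table lists the arms of miR-142a under the names miR-142-3p and miR-142-5p, and they were matched through the RefSeq gene Mir142, which holds the miR-142a names. The small RNAs came from the hippocampi of 12 male C57BL/6 mice aged 3 months, littermates from crosses of Gld2 heterozygotes. The 6 wild-type mice (WT) are compared with 6 mice that lack both copies of Gld2 (GLD2-/-, here GLD2KO). Gld2, also named Tent2, encodes a poly(A) polymerase that adds adenosine to the 3′ ends of RNAs, miRNAs included, and the study asks whether Gld2 adds such nucleotides to miRNAs. The counts per miRNA described here do not show added nucleotides. Small RNA libraries do not measure Gld2 mRNA, so the genotypes rest on the labels. Whether blood was flushed from the brains is not given in the sources used here.

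MiR-142 is made by blood-forming cells of nearly all lineages and by microglia, the resident macrophages of the brain. MiR-223 marks myeloid cells such as neutrophils, and miR-150 marks mature lymphocytes, where it restrains the transcription factor Myb. MiR-155 is induced when macrophages and microglia sense microbial products, and it targets Socs1, a brake on cytokine signalling. MiR-146a is induced through NF-κB, and miR-146a and miR-146b target Traf6 and Irak1, signalling proteins of that pathway. MiR-21 is made in many cell types, is induced through STAT3, and represses Pdcd4. In human cells a related polymerase, PAPD5, adenylates miR-21.

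The mature sequences show which members can be told apart and which share targets, since a miRNA finds its targets mainly through its seed. RefSeq (GRCm38.p6) gave the mature sequence of 7 of the 8 members, each printed 5′ to 3′ with the seed, bases 2 to 8, in capitals.
miR-142a-3p: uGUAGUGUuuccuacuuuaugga
miR-142a-5p: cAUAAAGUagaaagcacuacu
miR-223-3p: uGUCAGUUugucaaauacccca
miR-155-5p: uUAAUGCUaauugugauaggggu
miR-146a-5p: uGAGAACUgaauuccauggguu
miR-146b-5p: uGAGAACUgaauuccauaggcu
miR-21a-5p: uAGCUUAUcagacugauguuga
These 7 sequences held 6 different seeds, and the shared one joined miR-146a-5p with miR-146b-5p. The pair differed by G18A and U21C, counted from 1 at the 5′ end with the base of miR-146a-5p first. Reads that end before those positions cannot be assigned to 1 of the pair, and how the authors assigned them is not given in the sources used here. The 7 sequences were 21 to 23 bases long and rich in A and U. Their GC content ran from 33.3% in miR-142a-5p to 40.9% in miR-223-3p, miR-146a-5p and miR-146b-5p. Of the 7 sequences, 3 ended in A and 4 in U. Among the other miRNAs of the RefSeq table, miR-21c was found with the seed of a member, that of miR-21a-5p, and it had 1 count in all libraries together.

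The hairpins lie at 7 loci (GRCm38, GENCODE M21). Mir142 (chromosome 11, 87756864 to 87756927, plus strand) is in an intron of the long noncoding RNA Mir142hg, and Mir142b is annotated on the opposite strand. Mir155 (chromosome 16, 84714140 to 84714204, plus strand) is in an exon of the noncoding Mir155hg. Mir146, the miR-146a hairpin (chromosome 11, 43374397 to 43374461, minus strand), and Mir150 (chromosome 7, 45121757 to 45121821, plus strand) lie within no other gene on their strand. Mir146b (chromosome 19, 46342762 to 46342870, plus strand) is in an intron of Mfsd13a. Mir21a (chromosome 11, 86584067 to 86584158, minus strand) is in an exon of Vmp1, and Mir223 (chromosome X, 96242817 to 96242926, plus strand) is in an exon of F630028O10Rik, annotated as an antisense RNA.

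Libraries held 2197915 to 3761106 counts. Levels are given as CPM, the deposited counts on a common library size, after TMM scaling, which corrects each library's total for the few miRNAs that dominate it. The scaling factors set 4 libraries apart, WT replicates 1 and 3 and GLD2KO replicates 1 and 4, with factors of 0.747 to 0.816 against 0.928 to 1.36 in the others. For some results the value without these 4 libraries is also given. The neuronal miR-124-3p, checked against the brain label, had 134187 to 628512 counts per library.

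The order of the members' levels ran from miR-21a-5p, at a mean of 4877 CPM and rank 36 of the 521 tested miRNAs, to miR-155-5p, at 4.82 CPM and rank 496. MiR-150-5p came second with 929 CPM, its range clear of those above and below. MiR-146a-5p, miR-142a-3p and miR-146b-5p followed at 241, 184 and 160 CPM, and their ranges overlapped, so that their order is not resolved. MiR-223-3p stood at 89.2 CPM and miR-142a-5p at 49.5 CPM, again with overlapping ranges. MiR-223-3p, from 6.94 to 351 CPM, also overlapped miR-146a-5p, miR-142a-3p, miR-146b-5p and miR-155-5p. MiR-142a-5p, from 21.8 to 83.1 CPM, also overlapped miR-142a-3p and miR-146b-5p. The order among members with overlapping ranges is not resolved. Ligation and size selection weigh each miRNA differently, so levels compare libraries better than they compare miRNAs. Together the 8 members took 0.627 ± 0.126% (SD, n = 6) of all counts in WT and 0.655 ± 0.193% (SD, n = 6) in GLD2KO. Of the members' counts, miR-21a-5p alone made up 71.2 ± 6.26% in WT and 73.1 ± 11.6% in GLD2KO.

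**Figure D1:**
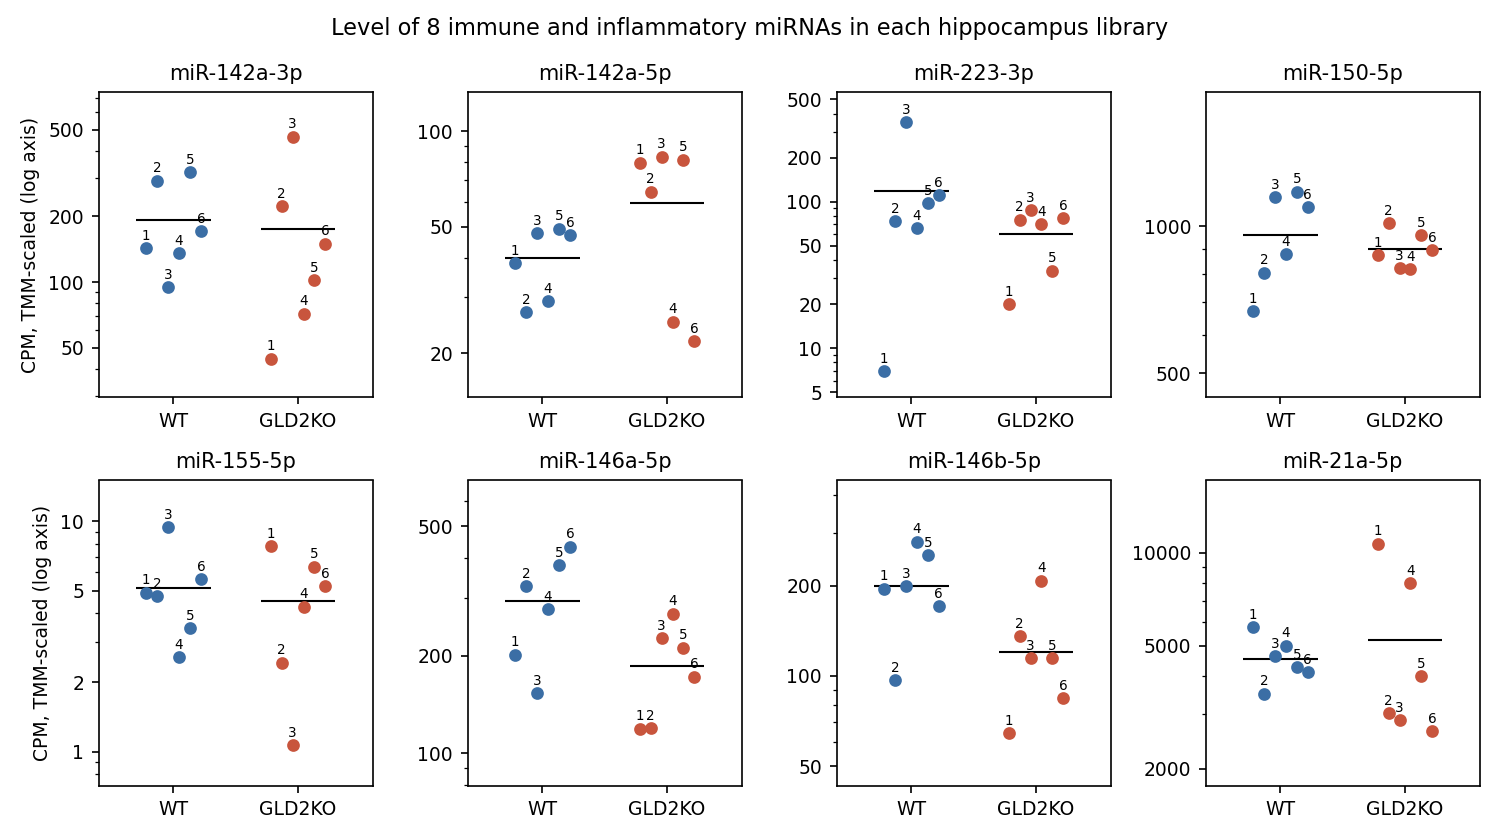
Level of each member in CPM (log axis, a separate scale in each panel) in the 6 WT and 6 GLD2KO libraries, with points labelled by replicate number and a line at the mean. The ranges of the genotypes overlap for all 8 members, the 6 GLD2KO points of miR-146a-5p all lie under the WT median of 303 CPM, and WT replicate 3 stands above the others for miR-223-3p.

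No difference between genotypes passed the test for any of the 8 members. In edgeR's quasi-likelihood test over 521 miRNAs, 0 members and 0% of all tested miRNAs passed a Benjamini-Hochberg adjusted p of 0.05, and the lowest adjusted p among the members was 0.841. At an unadjusted p under 0.05 there were 0 members, against 4.8% of all tested miRNAs. DESeq2 and limma-voom also called 0 miRNAs. DESeq2 put 2 members, miR-146a-5p and miR-146b-5p, under an unadjusted p of 0.05 (DESeq2 adjusted p = 0.985 for each). Over all 1325 miRNAs that DESeq2 fitted, 45 had an unadjusted p under 0.05. The log2 fold change, GLD2KO minus WT, was above 0 for 2 members, against 58.7% of all tested miRNAs, and below 0 for 6, against 41.3%. The members' median was -0.15 and that of all tested miRNAs 0.12. Ranges of the genotypes were separate for 0 members and for 0.576% of all tested miRNAs. For 1 member, miR-150-5p, the 95% interval stayed inside a 2-fold difference in both directions, as it did for 17.1% of all tested miRNAs. For the other members the interval allows a difference of more than 2-fold. In whole tissue, fewer cells of a type and less of a miRNA per cell cannot be told apart.

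**Figure D2:**
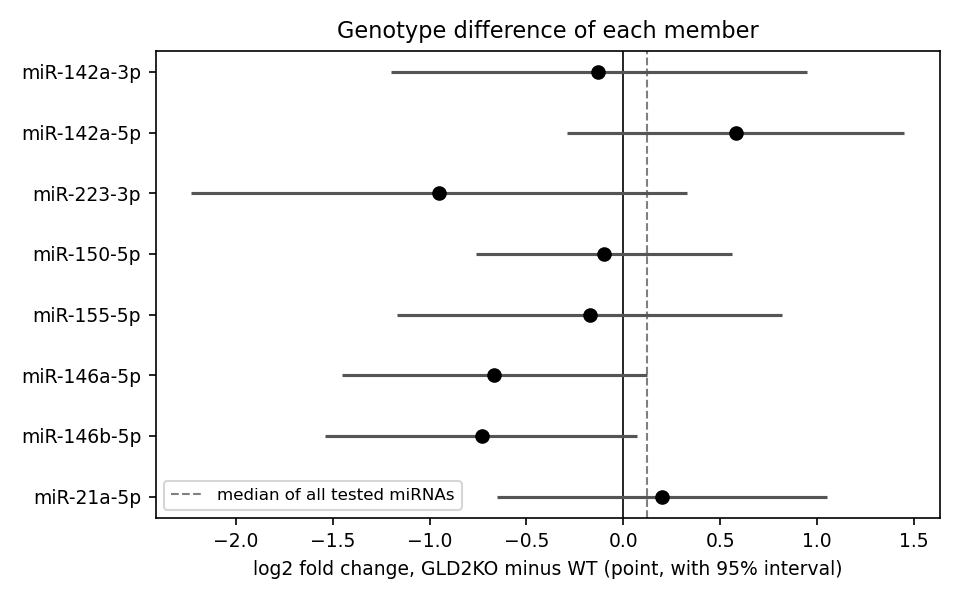
Log2 fold change of each member, GLD2KO minus WT (points), with its 95% interval from edgeR (lines), beside 0 (solid) and the median of all 521 tested miRNAs, 0.12 (dashed). All 8 intervals include 0, and miR-146a-5p and miR-146b-5p lie furthest to the left after miR-223-3p.

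The miR-146 pair had lower means in GLD2KO, and neither passed the test. MiR-146a-5p ran from 153 to 433 CPM in WT, with a median of 303, and from 119 to 269 CPM in GLD2KO, with a median of 192. All 6 GLD2KO libraries lay under the WT median, while WT replicates 1 and 3, at 201 and 153 CPM, lay within the GLD2KO range. The log2 fold change was -0.67 (standard error, SE, of 0.37, 95% interval -1.45 to 0.12, edgeR adjusted p = 0.841). MiR-146b-5p ran from 96.9 to 280 CPM in WT, with a median of 198, and from 64.5 to 208 CPM in GLD2KO, with a median of 114. WT replicates 1, 2, 3 and 6, at 196, 96.9, 199.5 and 171 CPM, lay within the GLD2KO range, and replicates 4 and 5 above it. GLD2KO replicates 1 and 6, at 64.5 and 84.1 CPM, lay below all of WT, and the others within the WT range. For miR-146b-5p the log2 fold change was -0.73 (SE 0.38, interval -1.54 to 0.07, edgeR adjusted p = 0.841). Since the pair shares a seed, their levels were also summed. The sum averaged 495 ± 118 CPM (SD, n = 6) over the wild types and 306 ± 101 CPM (SD, n = 6) over the knockouts, with ranges of 353 to 633 and 184 to 477 CPM that overlap.

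Both miR-146 differences kept their sign in every fit that was run. Over the 12 fits that leave out 1 library, the fold change of miR-146a-5p lay between -0.76 and -0.51 and that of miR-146b-5p between -0.95 and -0.61. Without the 4 libraries of low scaling factor they were -0.92 (edgeR adjusted p = 0.680) and -0.82 (adjusted p = 0.734). No relation between the levels of the pair over libraries was detected (Pearson's r = 0.22, permutation p = 0.496, adjusted p = 0.972 over the 28 pairs of members, Spearman's rho = 0.15, permutation p = 0.651, 12 libraries centred within genotype). Their proportion differed from library to library, as the log2 ratio of miR-146a-5p to miR-146b-5p counts ran from -0.38 to 1.76 in WT and from -0.18 to 1.03 in GLD2KO. The star arms were rare, with 4 counts of miR-146a-3p and 50 of miR-146b-3p in all libraries together.

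The arms of miR-142, the pan-leukocyte and microglial miRNA, had fold changes of opposite sign, neither past the threshold. MiR-142a-3p ran from 94.8 to 318 CPM in WT, with a median of 157, and from 44.5 to 465 CPM in GLD2KO, with a median of 126. The lowest and the highest of all 12 libraries were GLD2KO replicates 1 and 3, so that the spread within GLD2KO exceeded the gap between genotypes. For this arm the log2 fold change was -0.13 (SE 0.51, interval -1.20 to 0.95, edgeR adjusted p = 0.990). It was -0.72 without GLD2KO replicate 3, and lay between 0.08 and 0.13 without WT replicate 2 or 5 or GLD2KO replicate 1 or 4. Without the 4 libraries of low scaling factor it was 0.08. MiR-142a-5p ran from 26.9 to 49.3 CPM in WT, with a median of 42.7, and from 21.8 to 83.1 CPM in GLD2KO, with a median of 72.1. In GLD2KO 4 libraries lay above all of WT and the other 2, replicates 4 and 6, below all of WT. For the 5p arm the log2 fold change was 0.58 (SE 0.42, interval -0.29 to 1.45, edgeR adjusted p = 0.978).

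Both arms are cut from 1 hairpin, and no relation between their levels over the libraries was detected (Pearson's r = 0.11, permutation p = 0.728, adjusted p = 0.972 over the 28 pairs, rho = 0.17, permutation p = 0.602, n = 12). The 3p arm outnumbered the 5p arm in 11 libraries, and GLD2KO replicate 1 held 91 counts of 3p against 163 of 5p. On the log2 scale 5p over 3p averaged -2.18 ± 0.83 (SD, n = 6) among wild types and -1.34 ± 1.37 (SD, n = 6) among knockouts. The difference, GLD2KO minus WT, was 0.84 (interval -0.55 to 2.23, limma adjusted p = 0.922), and 0.40 without GLD2KO replicate 1. In limma over 167 hairpins 0% passed an adjusted p of 0.05 for a difference in arm ratio, and 1.2% had an unadjusted p under 0.05. The SD of the miR-142 ratio over all 12 libraries was 1.16. Its SD pooled within genotypes ranked 94 of the 167 from the highest, near the middle. The antisense miR-142b had 0 counts.

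The myeloid miR-223-3p had the widest spread of the members. It ran from 6.94 to 351 CPM in WT, with a median of 85.6, and from 20.04 to 87.4 CPM in GLD2KO, with a median of 72.9. Both ends of the 50.6-fold range were WT libraries, replicate 1 with 17 counts (95% exact Poisson interval 9.90 to 27.2 counts) and replicate 3 with 597 counts (interval 550 to 647), and such intervals cover counting error only. MiR-223-3p had a log2 fold change of -0.95 (SE 0.61, interval -2.23 to 0.33, edgeR adjusted p = 0.978). WT replicate 3 set most of its size, as the value was -0.18 without that library and -0.31 without the 4 libraries of low scaling factor, of which it is 1. It was -0.40 in limma-voom and -0.43 with the replicate number as a block. It was -1.19 without WT replicate 1 (edgeR adjusted p = 0.717, unadjusted p = 0.0333). The other arm, miR-223-5p, had 3 counts in all libraries together.

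The lymphocyte miR-150-5p was the steadiest member, with the second-lowest edgeR dispersion of all 521 tested miRNAs. It ran from 670 to 1176 CPM in WT, with a median of 986, and from 816 to 1015 CPM in GLD2KO, with a median of 883. The GLD2KO libraries all lay inside the WT range. Between genotypes the log2 fold change was -0.10 (SE 0.32, interval -0.76 to 0.56, edgeR adjusted p = 0.982), and 0.01 without WT replicate 3. MiR-150-5p over miR-150-3p, in log2 counts, averaged 7.72 ± 1.33 (SD, n = 6) among wild types and 6.54 ± 0.59 (SD, n = 6) among knockouts. The difference was -1.18 (interval -2.50 to 0.15, limma adjusted p = 0.922), and -0.72 without WT replicate 2. The rare 3p arm, at 2 to 39 counts a library, limits that ratio.

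The activation-induced miR-155-5p was near the limit of detection, with 4 to 23 counts a library. It ran from 2.58 to 9.42 CPM in WT, with a median of 4.82, and from 1.07 to 7.82 CPM in GLD2KO, with a median of 4.75. The lowest value, in GLD2KO replicate 3, rests on 4 counts, with an exact Poisson interval of 1.09 to 10.2 counts. This gave a log2 fold change of -0.17 (SE 0.48, interval -1.17 to 0.82, edgeR adjusted p = 0.978), which was 0.11 without WT replicate 3 and 0.03 without GLD2KO replicate 3. MiR-155-3p had 0 counts in all 12 libraries.

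The broadly expressed miR-21a-5p was the most abundant member, and its values lay further apart among the knockouts than among the wild types. It ran from 3504 to 5746 CPM in WT, with a median of 4457, and from 2647 to 10728 CPM in GLD2KO, with a median of 3510. GLD2KO replicates 1 and 4, at 10728 and 7977 CPM, lay above all of WT, and replicates 2, 3 and 6 lay below all of WT. The coefficient of variation was 17.1% in WT and 64.5% in GLD2KO, and the difference in spread was not tested. MiR-21a-5p had a log2 fold change of 0.20 (SE 0.41, interval -0.65 to 1.05, edgeR adjusted p = 0.978). It was -0.16 without GLD2KO replicate 1 and -0.41 without the 4 libraries of low scaling factor, which include both high GLD2KO libraries (adjusted p = 0.846). MiR-21a-5p over miR-21a-3p, in log2 counts, averaged 9.57 ± 1.03 (SD, n = 6) among wild types and 9.10 ± 0.96 (SD, n = 6) among knockouts. The difference was -0.48 (interval -1.78 to 0.83, limma adjusted p = 0.944). It was -0.06 without WT replicate 3, -0.27 without GLD2KO replicate 6 and -0.73 without GLD2KO replicate 1, and -0.28 without the 4 libraries of low scaling factor. The near-identical miR-21b and miR-21c had 1 count each.

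Between libraries, the members' levels showed no common direction. Over the 28 pairs of members, Pearson's r of log2 CPM, centred within genotype, had a median of 0.03 and ran from -0.80 to 0.70, and 15 pairs were above 0. Of these 28 relations 2 passed an adjusted permutation p of 0.05, and both were negative. MiR-142a-3p was low where miR-21a-5p was high (r = -0.80, permutation adjusted p = 0.0337; rho = -0.76, permutation adjusted p = 0.165; 12 libraries), with r = -0.63 within WT and -0.85 within GLD2KO. Without GLD2KO replicates 1 and 3, the libraries farthest from the median of miR-142a-3p, r was -0.69 (permutation p = 0.0199). The relation of miR-142a-3p with miR-155-5p (r = -0.78, permutation adjusted p = 0.0337; rho = -0.69, permutation adjusted p = 0.234) rested on those libraries, as r was -0.51 without them (permutation p = 0.131). The highest positive r, of miR-223-3p with miR-150-5p, was 0.70 (permutation adjusted p = 0.111; rho = 0.51, permutation adjusted p = 0.657), and 0.16 without WT replicates 1 and 3. All r of pairs, also those within a genotype, rest on TMM-scaled levels. No pair was redone on total counts or without the 4 libraries of low scaling factor. GLD2KO replicates 1 and 4, the highest for miR-21a-5p, are among those 4. Whether the relations of pairs depend on the scaling was not tested.

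**Figure D3:**
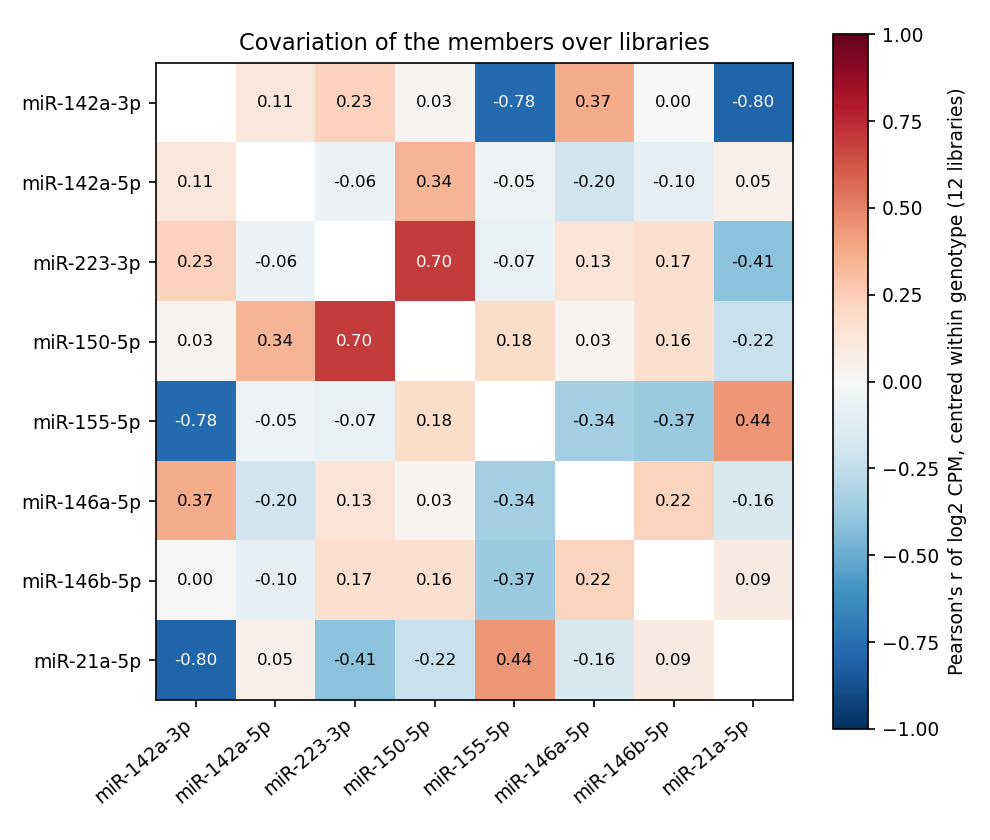
Pearson's r of log2 CPM, centred within genotype, for each of the 28 pairs of members over 12 libraries (colour and printed value). The median is 0.03, and the darkest squares are the negative ones of miR-142a-3p with miR-21a-5p (-0.80) and with miR-155-5p (-0.78).

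Red blood cells carry miR-451a in large amounts, so this miRNA was used as a marker of blood. It ran from 614 to 22851 CPM in WT and from 1089 to 23727 CPM in GLD2KO. The genotypes overlapped (log2 fold change 0.16, interval -1.33 to 1.66, edgeR adjusted p = 0.990). Over the 12 libraries miR-451a spanned a 38.6-fold range of CPM. The other red blood cell miRNAs spanned 13.1-fold (miR-144-3p), 6.98-fold (miR-144-5p), 6.35-fold (miR-486-5p) and 28.3-fold (miR-486-3p, at 1 to 26 counts a library). No member was set against those miRNAs. Of the 8 members, miR-142a-3p was high where miR-451a was high (Pearson's r = 0.83, permutation adjusted p = 0.00648 over the 8 relations; rho = 0.89, permutation adjusted p = 0.00184; n = 12). The r was 0.87 within WT (exact permutation p = 0.0111) and 0.87 within GLD2KO (exact permutation p = 0.0236). It was 0.87 without WT replicate 3 and GLD2KO replicate 4, the libraries farthest from the miR-451a median (permutation p = 0.00058), 0.83 without the 4 libraries of low scaling factor and 0.88 on total counts. The other arm of the hairpin, miR-142a-5p, showed no detectable relation (r = 0.00, permutation adjusted p = 0.993; rho = -0.06, permutation adjusted p = 0.871), with r = 0.36 on total counts (permutation adjusted p = 0.350).

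MiR-21a-5p ran the other way (r = -0.66, permutation adjusted p = 0.0754; rho = -0.78, permutation adjusted p = 0.0163; n = 12). Its r was -0.55 within WT (exact permutation p = 0.236) and -0.83 within GLD2KO (exact permutation p = 0.0403). It passed the threshold without the 2 libraries farthest from the miR-451a median (r = -0.76, permutation adjusted p = 0.0142) and without the 4 libraries of low scaling factor (r = -0.91, permutation adjusted p = 0.0352). On total counts, with no TMM scaling, r was -0.36 (permutation adjusted p = 0.350), so this relation depends on the scaling. For miR-223-3p, miR-150-5p, miR-155-5p, miR-146a-5p and miR-146b-5p r lay between -0.61 and 0.34, and none passed (lowest permutation adjusted p = 0.0981, for miR-155-5p). Without the 4 libraries of low scaling factor r was -0.40 for miR-155-5p, 0.05 for miR-146a-5p and -0.41 for miR-150-5p. In that setting it was -0.58 for miR-146b-5p and 0.64 for miR-223-3p, and none passed. For miR-146a-5p r was 0.79 within WT (exact permutation p = 0.05) and -0.21 within GLD2KO. For the myeloid miR-223-3p r was -0.08 (permutation adjusted p = 0.924; rho = 0.21), and 0.60 without the 2 libraries farthest from the miR-451a median (permutation adjusted p = 0.170). The part that blood plays in the members' levels was not tested.

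**Figure D4:**
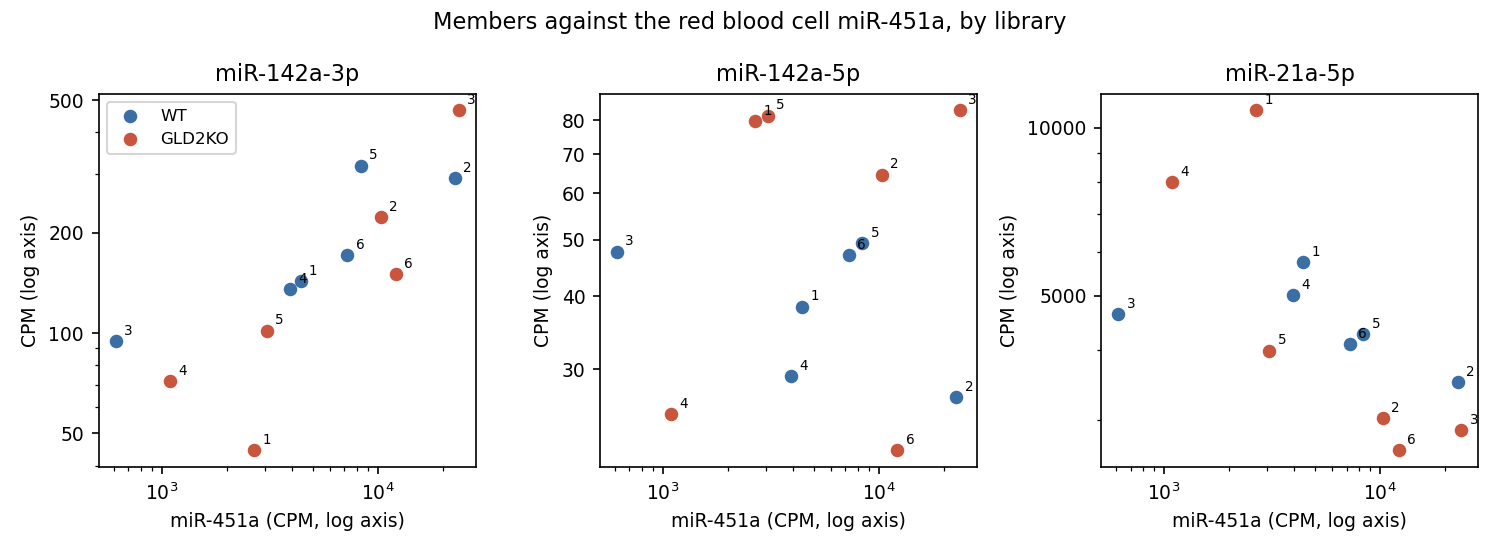
Level of miR-142a-3p, miR-142a-5p and miR-21a-5p against miR-451a in each library (CPM, log axes), labelled by replicate number and coloured by genotype. Points of miR-142a-3p climb with miR-451a (r = 0.83), those of miR-142a-5p show no slope (r = 0.00), and those of miR-21a-5p descend (r = -0.66).

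The miRNAs most like each member over the 12 libraries were taken as the 2 with the highest Pearson r of log2 CPM, centred within genotype, among the 513 other tested miRNAs. Chosen as the highest, they carry no p, and all points share the libraries' depth and scaling. Closest to miR-142a-3p were miR-219a-5p (r = 0.89, rho = 0.86), known from oligodendrocytes, and miR-19a-3p (r = 0.86, rho = 0.92), of the miR-17-92 cluster. MiR-19a-3p had few counts, from 0 in GLD2KO replicate 1 to 65 in GLD2KO replicate 3. MiR-219a-5p was highest, at 5379 CPM, and lowest, at 151 CPM, in the same GLD2KO replicates 3 and 1 as miR-142a-3p. Closest to miR-21a-5p were miR-369-3p (r = 0.99, rho = 0.99), of the imprinted Dlk1-Dio3 locus, and miR-340-5p (r = 0.94, rho = 0.95). In GLD2KO replicates 1 and 4 miR-369-3p reached 19028 and 11856 CPM, against 2726 to 8074 CPM in the other 10 libraries. The GC content of miR-369-3p was 23.8% and that of miR-340-5p 27.3%, beside 36.4% for miR-21a-5p. The part that base composition or scaling plays in these likenesses was not tested.

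Closest to miR-223-3p were miR-15a-5p (r = 0.87, rho = 0.79) and miR-16-5p (r = 0.82, rho = 0.72), which come from a shared cluster and share a seed. MiR-15a-5p stood at 2898 CPM in WT replicate 3, its highest library, and at 421 CPM in GLD2KO replicate 1, its lowest. MiR-146b-5p was most like miR-668-3p (r = 0.87, rho = 0.78) and miR-874-3p (r = 0.78, rho = 0.69). MiR-146a-5p was most like miR-374b-5p (r = 0.79, rho = 0.66) and miR-7047-3p (r = 0.76, rho = 0.73). MiR-155-5p, at few counts, was most like miR-138-2-3p (r = 0.91, rho = 0.88) and miR-361-3p (r = 0.82, rho = 0.79). For miR-150-5p the closest were miR-129-2-3p (r = 0.76, rho = 0.73) and miR-222-5p (r = 0.74, rho = 0.55), and for miR-142a-5p miR-708-3p (r = 0.76, rho = 0.52) and miR-192-5p (r = 0.75, rho = 0.71). MiR-222-5p also had few counts, from 3 in WT replicate 1 to 33 in WT replicate 5.

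No further miRNA of leukocytes, blood or vessels passed the test, and neither did any other of the 521 tested miRNAs. Of all tested miRNAs, 58.7% had a log2 fold change above 0. Of 6 further leukocyte and macrophage miRNAs 3 had enough counts to test, 2 higher and 1 lower, with 0 past the threshold and a median log2 fold change of 0.34 beside 0.12 over all tested miRNAs. These were miR-342-3p, known from lymphocytes and monocytes, averaging 810 CPM for WT and 782 for GLD2KO, its other arm miR-342-5p, at 84.9 and 107 CPM, and miR-511-3p, from an intron of the macrophage receptor gene Mrc1, at 12.7 and 18.6 CPM. The macrophage miR-147-3p had 0 to 11 counts a library. Red blood cell miRNAs were higher in 5 of 5 by sign, with a median of 0.39 and 0 past the threshold, and their summed share ran from 0.0583 to 2.54% of counts in WT and from 0.113 to 3.32% in GLD2KO. Vascular miRNAs were higher in 4 of 6, with a median of 0.17 and 0 past the threshold, and their summed share ran from 0.549 to 1.21% in WT and from 0.543 to 1.15% in GLD2KO.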

How the data were processed

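Small RNA from 12 hippocampi was extracted with TRIzol, cut from a gel and sequenced on an Illumina HiSeq instrument, per the labels' protocols. The lower bound of the size range differs between the labels and the design text. Trimmomatic 0.32, cutadapt 1.3 and the build GRCm38 are named in the submitters' processing notes. The sources used here do not name the aligner, the counter or the handling of shared reads. The authors deposited raw counts per mature miRNA. The table had 1 row without a miRNA name, with 0 counts, which was left out. Column names gave each sample. The labels describe separate mice, and no 2 libraries of a genotype held near-identical counts.

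Counts were tested with edgeR 4.0.16 in R 4.3.3 (TMM, filterByExpr, quasi-likelihood test, Benjamini-Hochberg over all 521 tested miRNAs, threshold 0.05). The tested miRNAs held 99.96% of counts, and all 8 members passed the filter. Arm ratios, with a pseudocount of 0.5 keeping hairpins whose arms each average 10 counts or more, were tested with limma 3.58.1. Correlations used log2 CPM (prior count 2) with two-sided permutation p-values from 100000 resamples, or all orders within a genotype. The edgeR test was checked on simulated counts. The arm ratio test was checked on the real counts with a known change added to some hairpins. The correlation test was checked on simulated normal values. Alternatives were DESeq2 1.42.0, limma-voom, other scalings, a robust fit, no filter, the replicate number as a block and leaving out libraries. The members, lists and tests were chosen with earlier results of these data known. Named were the members, their other arms and close copies, and the 2 miRNAs most like each; others were named where a result turned on them. The cell type lists for neurons, oligodendrocytes and choroid plexus had median log2 fold changes of 0.14, -0.10 and 0.68, each with 0 past the threshold.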

Additional observations from a re-analysis of the deposited data

Results flagged for a closer look

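Among 24 sets of 6 libraries checked, 2 held a single library set apart from the rest of its genotype. By chance 1 in 20 sets would be found so if values were normally distributed, or 1.2 here. The members' levels were checked as CPM, without a log scale. Both cases were WT replicate 3. Its miR-223-3p level was 351 CPM, while the remaining wild types ranged from 6.94 to 110 CPM. Its log2 ratio of miR-21a-5p to miR-21a-3p was 11.62, while the remaining wild types ranged from 8.94 to 9.60. That ratio rests on 7880 counts of the 5p arm and 2 of the 3p arm. For miR-223-3p the flag depends on the scale. In log2 CPM WT replicate 3 stood at 8.46, WT replicate 1 at 2.93 and the other wild types at 6.06 to 6.80. On that scale replicate 1 lay further from the rest than replicate 3.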

How the results depend on the processing

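No member passed the threshold in any of the 21 alternative fits. The count of all tested miRNAs past the threshold was 0 in those fits except with no low-count filter, where edgeR called 7 of 1325, none of them a member. Leaving out each library in turn, signs turned for miR-142a-3p (-0.72 to 0.13), miR-150-5p (-0.18 to 0.01), miR-155-5p (-0.42 to 0.11) and miR-21a-5p (-0.16 to 0.33). The fold change of miR-142a-3p was 0.05 on total counts and 0.08 without the 4 libraries of low scaling factor. That of miR-21a-5p was -0.01 in limma-voom, -0.01 with the replicate block and -0.41 without the 4 libraries. Leaving out those 4 libraries was chosen after seeing the data. The signs of miR-142a-5p, miR-223-3p, miR-146a-5p and miR-146b-5p and of the 3 arm ratios held throughout, while sizes moved: miR-223-3p lay between -1.19 and -0.18 with a library left out, and the arm ratio differences between 0.40 and 1.13 for miR-142, -1.45 and -0.72 for miR-150, and -0.73 and -0.06 for miR-21a. The replicate number is not said to pair mice. The correlation of same-numbered libraries ran from -0.23 to 0.24, and 1 of 6 WT libraries correlated best with its own number. Such values cannot show whether the numbers pair mice. With the replicate number as a block 0 miRNAs passed.

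Correlations with miR-451a turned sign without the 2 libraries farthest from its median for miR-142a-5p (-0.29) and miR-223-3p (0.60), without the 4 libraries for miR-142a-5p (-0.19) and miR-223-3p (0.64), and on total counts for miR-223-3p (0.15), miR-150-5p (0.51) and miR-146b-5p (0.10). That of miR-21a-5p passed without the 2 (-0.76) and without the 4 libraries (-0.91), but was -0.36 on total counts (permutation adjusted p = 0.350). On total counts r was also -0.35 for miR-155-5p and 0.62 for miR-146a-5p, neither past the threshold. The cause of these changes was not tested. Depth limits miR-155-5p and the rare arms most.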
